A study of Mus musculus with 12 samples.

Results

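The kainate receptor genes examined here were the subunit genes Grik1, Grik2, Grik3, Grik4 and Grik5 and the auxiliary subunit genes Neto1 and Neto2, taken by symbol from the deposited gene and transcript tables. All 7 were found among the 13770 gene models of the gene table, and they had 16 of the 29097 transcripts of the transcript table. Messenger RNA had been sequenced from whole brains of C57BL/6 mice (C57BL/6J in the methods of the study) at embryonic day 18 (E18). The brains with prenatal alcohol exposure (PAE) were ES19-4, ES23-7 and ES27-4 (female) and ES19-8, ES23-4 and ES27-1 (male), from dams offered saccharin-sweetened ethanol to drink for a limited time each day, during mating and then until the end of pregnancy. The control brains (SAC) were SAC12-5, SAC26-5 and SAC26-7 (female) and SAC12-6, SAC12-7 and SAC26-8 (male), from dams offered saccharin without ethanol on the same schedule, so that saccharin was common to both groups. Each of the 12 brains gave 1 library, and a whole brain mixes all of its regions and cell types.

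Kainate receptors are glutamate-gated cation channels built from 4 subunits. GluK1, GluK2 and GluK3 (from Grik1, Grik2 and Grik3) form working channels by themselves, whereas GluK4 and GluK5 (from Grik4 and Grik5) bind kainate with high affinity and need a partner from the GluK1 to GluK3 set to reach the cell surface. Neto1 and Neto2 are membrane proteins that bind the channels and alter their gating. In the brain these receptors are known for slow excitatory currents, as at hippocampal mossy fibre synapses, and for tuning transmitter release at glutamate and GABA terminals.

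The subunit transcripts also differ by RNA editing, in which ADAR enzymes change an A in the glutamine codon of the pore loop (the Q/R site) so that it is read as arginine, in Grik1 and Grik2. Editing cannot be read from expression values and was not analysed here. The letters around that codon are shown because it is where editing acts and because the 5 subunits can be lined up there, and the capitals mark the codon. They come from the GENCODE M21 transcripts on GRCm38, in the sense direction, with the codon at chr16:87940542-87940544 (minus strand) for Grik1, chr10:49244329-49244331 (minus) for Grik2, chr4:125691207-125691209 (plus) for Grik3, chr9:42547623-42547625 (minus) for Grik4 and chr7:25022497-25022499 (minus) for Grik5.
Grik1: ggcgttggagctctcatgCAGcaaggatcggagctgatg
Grik2: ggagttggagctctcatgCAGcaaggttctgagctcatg
Grik3: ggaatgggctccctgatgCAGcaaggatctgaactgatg
Grik4: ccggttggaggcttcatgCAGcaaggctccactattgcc
Grik5: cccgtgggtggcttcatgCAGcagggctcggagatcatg
All 5 genes carry CAG there, and the windows of Grik1, Grik2 and Grik3 run across a splice junction. Over these 39 bases Grik1 and Grik2 shared 35, Grik1 and Grik3 shared 30, Grik4 and Grik5 shared 27, and Grik3 and Grik4 shared 19, the lowest of the 10 pairs.

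Transcripts of Grik1 differ by a pair of coding cassette exons, shown because the results on isoforms turn on them. The 45-base exon (chr16:87955289-87955333, minus strand) adds 15 residues to the extracellular part of GluK1. The 87-base exon (chr16:87896809-87896895, minus strand) adds 29 residues to the cytoplasmic tail.
Grik1 45-base exon: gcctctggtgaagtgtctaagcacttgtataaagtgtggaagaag
Grik1 87-base exon: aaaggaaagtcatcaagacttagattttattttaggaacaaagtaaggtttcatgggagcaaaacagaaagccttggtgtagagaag
The Grik1-209 transcript has both exons, Grik1-211 only the 45-base exon, Grik1-202 only the 87-base exon and Grik1-201 neither. For Grik2, the long tail of GluK2 is encoded by Grik2-207, and the short tail of Grik2-201, Grik2-204 and Grik2-209 ends in the 45 coding bases below (chr10:49105021-49105065, minus strand).
Grik2 short-form end: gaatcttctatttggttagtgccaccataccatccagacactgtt

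The values are FPKM (fragments scaled to transcript length and to the mapped total of the library), computed by the authors, so that levels of different genes can be set side by side per length. Read counts could not be recovered from them. In genes with 1 transcript, low values were tried as whole multiples of the value of a single read, and at the best guess only 16.3% to 27% of them per library came within 0.05 of a whole number. The depth of each library and the counting error of a value are thus unknown. Summed FPKM were 218026 to 232863 per library. The gene models of 6 of the 7 members match GENCODE M21 in identifier and span, and Neto1's ends earlier than in that annotation. No member overlaps another protein-coding gene in that annotation. Regional markers set some brains apart. The 14 Hox genes in the table, markers of hindbrain and spinal cord, summed to 62.9 FPKM in ES19-4 and to 0.048 to 0.18 FPKM in the other 5 PAE brains, against 0.26 FPKM in SAC12-6 and 24.6 to 70.2 FPKM in the other 5 SAC brains, and each of these genes was listed at 0 in at least 1 brain. Pan-neuronal markers (Tubb3, Map2, Rbfox3 and others) were present throughout, summing to 895 to 976 FPKM in PAE brains and 902 to 954 FPKM in SAC brains. Tubb3 alone averaged 543 FPKM in PAE and 506 FPKM in SAC. Of the 6, 0 were called in PAE vs. SAC by limma, where 9.56% of all genes tested were. At an unadjusted p under 0.05 stood 2 of 6, Snap25 lower (-0.28) and Tubb3 higher (0.10), where 28.5% of all genes did.

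Over the 12 brains the mean level was 24 FPKM for Grik3, 22.6 FPKM for Neto2 and 21.1 FPKM for Grik5. These 3 were not cleanly ordered: Grik3 exceeded Neto2 in 9 of 12 brains, and Neto2 exceeded Grik5 in 8 of 12. Below them came Neto1 at 12.7 FPKM, Grik2 at 8.63 FPKM, Grik1 at 6.07 FPKM and Grik4 at 2.1 FPKM. Each of these 4 was below the member above it in all 12 brains. In the gene table the most abundant channel-forming subunit was thus Grik3 and the most abundant high-affinity subunit Grik5, which held 38% to 45.1% and 30.8% to 36.2% of the summed Grik1 to Grik5 FPKM in PAE brains and 34.4% to 40.9% and 32.6% to 34.9% in SAC brains. Grik4 and Grik5 together stood at a ratio of 0.6 ± 0.054 to Grik1, Grik2 and Grik3 together in PAE brains and 0.602 ± 0.032 in SAC brains (SD, n = 6 each). Neto1 and Neto2 together stood at 0.577 ± 0.081 of the summed subunits in PAE brains and 0.564 ± 0.052 in SAC brains (SD, n = 6 each). Both ratios differed between groups by less than 1 SD. The place of Grik5, the order of other members and both ratios depend on the table used. With transcripts summed per gene, Grik5 averaged 6.35 FPKM over the 12 brains, below Grik2 at 12.1 FPKM and Grik1 at 10.4 FPKM. Its share of the subunits was then 8.29% to 14.6% in PAE brains and 9.83% to 12.7% in SAC brains, and the ratio of Grik4 and Grik5 to the other 3 was 0.181 ± 0.029 in PAE brains and 0.18 ± 0.016 in SAC brains (SD, n = 6 each). That of Neto1 and Neto2 to the subunits was 0.772 ± 0.104 in PAE brains and 0.725 ± 0.062 in SAC brains (SD, n = 6 each). Neto2, at 28.3 FPKM, was then above Grik3 at 24 FPKM, and Neto1, at 12.7 FPKM, was close to Grik2. In the gene table the sum over Grik1 to Grik5 was 60.7 to 65.4 FPKM in PAE brains and 58.6 to 64.1 FPKM in SAC brains, ranges that overlapped.

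**Figure D1:**
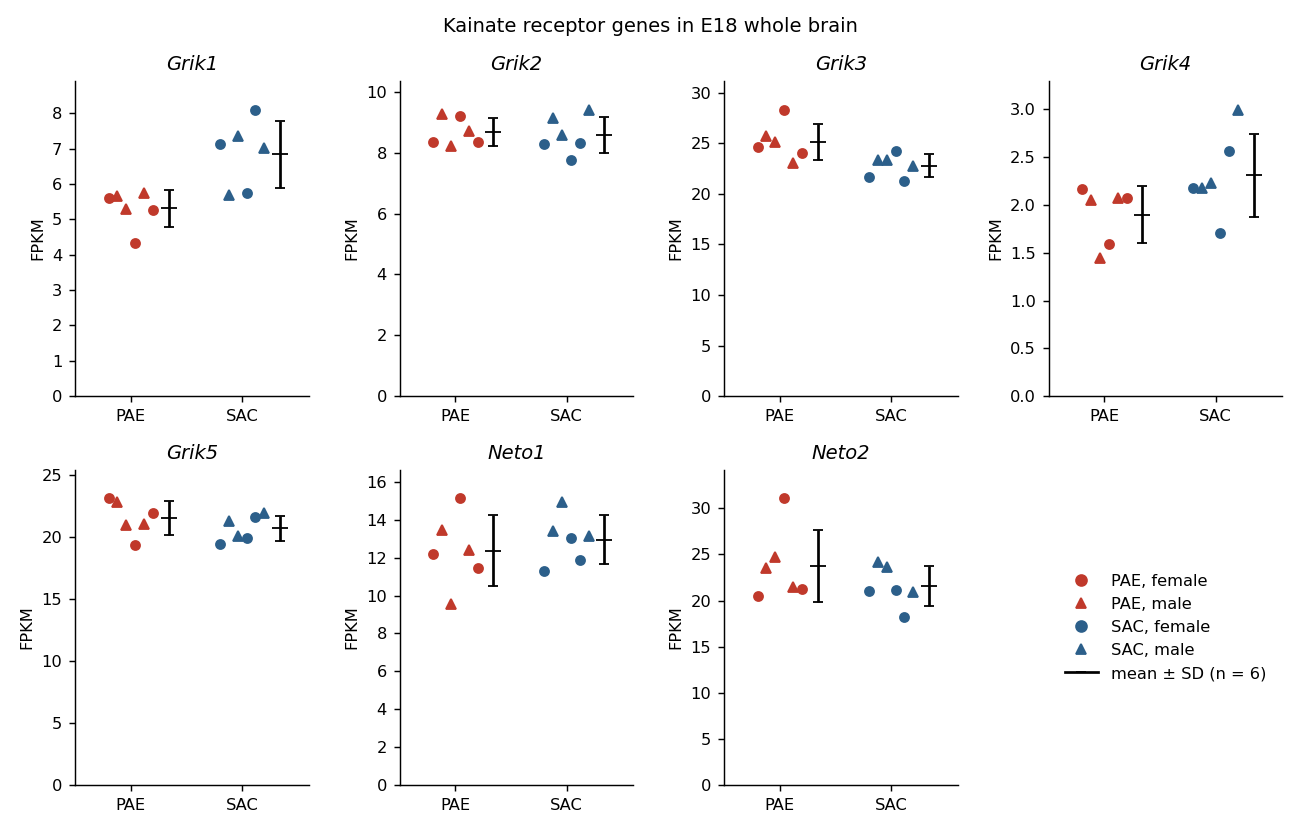
FPKM of each kainate receptor gene in 6 PAE brains (left) and 6 SAC brains (right), with circles for females, triangles for males, and the mean ± SD of each group in black. In Grik1, 5 PAE brains lie below all SAC brains and 4 SAC brains lie above all PAE brains, while no gene shows a complete gap between the groups.

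Grik1 was the only member called in PAE vs. SAC E18 whole brain, where it was lower. GluK1, its product, is best known in GABAergic interneurons and in sensory ganglion neurons. Grik1 had a lowest value of 4.33, a median of 5.44 and a highest value of 5.74 FPKM in PAE brains, against 5.69, 7.07 and 8.1 FPKM in SAC brains. The groups overlapped by a narrow margin, since SAC12-6 (5.69 FPKM) and SAC26-5 (5.73 FPKM) were level with the highest PAE brain, ES27-1. The means were 5.31 ± 0.52 FPKM in PAE brains and 6.83 ± 0.95 FPKM in SAC brains (SD, n = 6 each). On the log2(FPKM + 1) scale, used for all tests, Grik1 fell by 0.31 (95% interval -0.49 to -0.13, SE 0.084, adjusted p = 0.0396 by limma with Benjamini-Hochberg adjustment over 12346 genes).

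The call for Grik1 was a narrow one. In the same test 1180 of 12346 genes (9.56%) were called, 536 higher (4.34%) and 644 lower (5.22%), and 497 genes (4.03%) had all PAE brains on one side of all SAC brains. 1 of 7 members called is near that background. Leaving out each brain in turn kept the direction each time, with a log2 fold change of -0.35 to -0.26. The adjusted p stayed under 0.05 without ES19-4 (0.0279), SAC12-6 (0.0315) or SAC26-5 (0.0291) and passed above it when any of the other 9 was dropped. For dropped PAE brains it was 0.054 (ES19-8), 0.0775 (ES23-4), 0.0621 (ES23-7), 0.0535 (ES27-1) and 0.0669 (ES27-4). For dropped SAC brains it was 0.0757 (SAC12-5), 0.077 (SAC12-7), 0.0835 (SAC26-7) and 0.0878 (SAC26-8). The call was also lost with sex as a covariate (adjusted p = 0.0515), with the name prefix as a random block (0.0522) and with the Hox level as a covariate (log2 fold change -0.22, adjusted p = 0.365). With the Hox covariate 0 of all 12346 genes were called, so every called gene lost its call there, Grik1 among them. Of 10 Hox genes tested, 0 were called in PAE vs. SAC by limma. At an unadjusted p under 0.05, 8 of them were lower, where 28.5% of all genes stood in either direction. Hox level largely followed treatment, with ES19-4 and SAC12-6 as exceptions. Why the calls were lost in that fit was not tested.

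**Figure D2:**
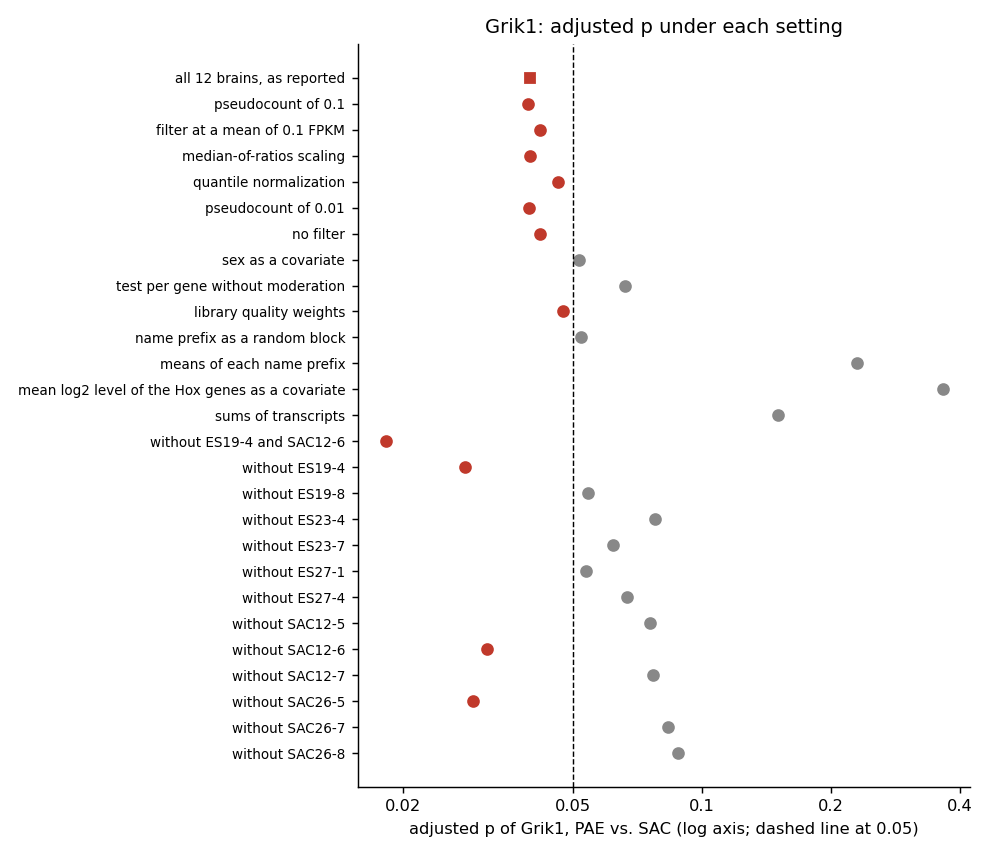
Adjusted p of Grik1 in PAE vs. SAC (log axis) in the comparison of all 12 brains (square) and under each alternative (circles), with values under 0.05 in red. The reported value of 0.0396 lies close to the dashed line at 0.05, and 9 of the 12 fits without a single brain lie to its right.

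Markers of several cell types also differed between PAE and SAC brains, some in the direction of Grik1 and some against it. Over all genes tested, 9.56% were called, 4.34% higher and 5.22% lower. The summed cortical excitatory list (Neurod2, Neurod6, Tbr1, Emx1, Fezf2) was 332 to 468 FPKM (median 424) in PAE brains and 208 to 342 FPKM (median 258) in SAC brains, with 5 of 5 genes higher. The astrocyte list was 213 to 403 FPKM (median 276) in PAE brains and 370 to 469 FPKM (median 403) in SAC brains, with 4 of 6 genes lower. The sensory ganglion list (Prph, Isl1, Tlx3, Avil, Pou4f1) was 13.3 to 22.3 FPKM (median 14.8) in PAE brains and 14.6 to 37.5 FPKM (median 24) in SAC brains, with 1 of 3 tested genes lower, the intermediate filament gene Prph, and with Tlx3 listed at 0 in some brains. Much of the difference in that sum was Prph, at 2.55 FPKM in PAE and 11 FPKM in SAC on average. Pou4f1 had -0.44 (adjusted p = 0.167 by limma), while Isl1 went the other way at 0.23 (adjusted p = 0.201). The GABAergic list was 134 to 149 FPKM (median 141) in PAE brains and 112 to 137 FPKM (median 124) in SAC brains, with 4 of 8 genes higher, all of them transcription factors (Dlx1, Dlx2, Dlx5, Lhx6). At an unadjusted p under 0.05 stood 5 higher and 2 lower genes of that list, where 28.5% of all genes tested did. The GABA transporter and synthesis genes had negative estimates that did not pass, Slc32a1 at -0.24 (adjusted p = 0.0844 by limma), Gad1 at -0.17 (adjusted p = 0.101) and Gad2 at -0.036 (adjusted p = 0.58).

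Over the 12 brains Grik1 correlated with the cortical excitatory sum at r = -0.87 (Spearman's rho = -0.85), with r = -0.59 within PAE and -0.73 within SAC (n = 6 each). With the sensory ganglion sum r was 0.84 (rho = 0.66), with 0.45 within PAE and 0.79 within SAC (n = 6 each). With the GABAergic sum r was of the opposite sign, -0.63 (rho = -0.71), with -0.24 within PAE and -0.11 within SAC (n = 6 each). The sensory ganglion list was not alone, since r was 0.77 (rho = 0.79) with the astrocyte sum and 0.70 (rho = 0.50) with the Hox sum. With the sum of a thalamus list, given below, r was 0.68 (rho = 0.62). These are descriptions over brains that share treatment groups. Among brains with little Hox RNA, Grik1 was 4.33 to 5.74 FPKM in 5 PAE brains and 5.69 FPKM in SAC12-6, which lay inside the PAE range. Among those with Hox RNA it was 5.6 FPKM in ES19-4 and 5.73 to 8.1 FPKM in the 5 SAC brains. The part of regional or cell type composition in the Grik1 result was not tested, and in bulk tissue fewer cells of a type and less RNA per cell cannot be told apart.

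Among the other channel-forming subunits, Grik3 was the nearest to a call. GluK3 has low glutamate affinity and is found on presynaptic terminals. Grik3 had a lowest value of 23.1, a median of 24.9 and a highest value of 28.3 FPKM in PAE brains, against 21.3, 23 and 24.3 FPKM in SAC brains. 4 PAE brains lay above all SAC brains, and 3 SAC brains below all PAE brains. The log2 fold change was 0.14 (95% interval 0.03 to 0.24, unadjusted p = 0.0159, adjusted p = 0.092 by limma), which did not pass. At an unadjusted p under 0.05 stood 2 of 7 members, Grik1 and Grik3, where 3516 of all genes tested (28.5%) did.

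Grik2, whose product GluK2 is the main subunit at mossy fibre synapses, was at 8.22, 8.54 and 9.26 FPKM (lowest, median and highest) in PAE brains, against 7.76, 8.46 and 9.41 FPKM in SAC brains. The SAC range held the whole PAE range. Its log2 fold change was 0.016 (95% interval -0.091 to 0.12, adjusted p = 0.859 by limma).

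Of the high-affinity subunits, Grik4 was the scarcest member and the one with the widest relative spread between SAC brains. It had 1.45, 2.06 and 2.17 FPKM (lowest, median and highest) in PAE brains, against 1.7, 2.21 and 3 FPKM in SAC brains. 5 of 6 SAC brains were above all PAE brains, though 2 of those, SAC12-5 and SAC12-6 (2.18 FPKM each), by a thin margin over ES19-4 (2.17 FPKM). The log2 fold change was -0.19 (95% interval -0.39 to 0.018, adjusted p = 0.215 by limma), which did not pass. Grik5, the abundant partner, had 19.4, 21.5 and 23.1 FPKM in PAE brains, against 19.4, 20.6 and 21.9 FPKM in SAC brains. Its ranges overlapped along most of their length, and its log2 fold change was 0.054 (95% interval -0.048 to 0.16, adjusted p = 0.479 by limma).

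Of the auxiliary subunits, Neto2 had 20.5, 22.5 and 31.1 FPKM (lowest, median and highest) in PAE brains, against 18.2, 21.1 and 24.2 FPKM in SAC brains. The highest value belonged to ES23-7, and the other 5 PAE brains spanned 20.5 to 24.7 FPKM. Its log2 fold change was 0.13 (95% interval -0.076 to 0.33, adjusted p = 0.4 by limma). Neto1, which also binds NMDA receptors, had 9.54, 12.3 and 15.1 FPKM in PAE brains, against 11.3, 13.1 and 14.9 FPKM in SAC brains. Both the lowest and the highest Neto1 value of the 12 brains were in PAE, from ES23-4 and ES23-7, and the log2 fold change was -0.07 (95% interval -0.27 to 0.13, adjusted p = 0.648 by limma). The ratio of Neto2 to Neto1 was 1.94 ± 0.34 in PAE brains and 1.67 ± 0.14 in SAC brains (SD, n = 6 each). The median log2 fold change of the 7 members was 0.016, beside 0.0052 over all genes tested.

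**Figure D3:**
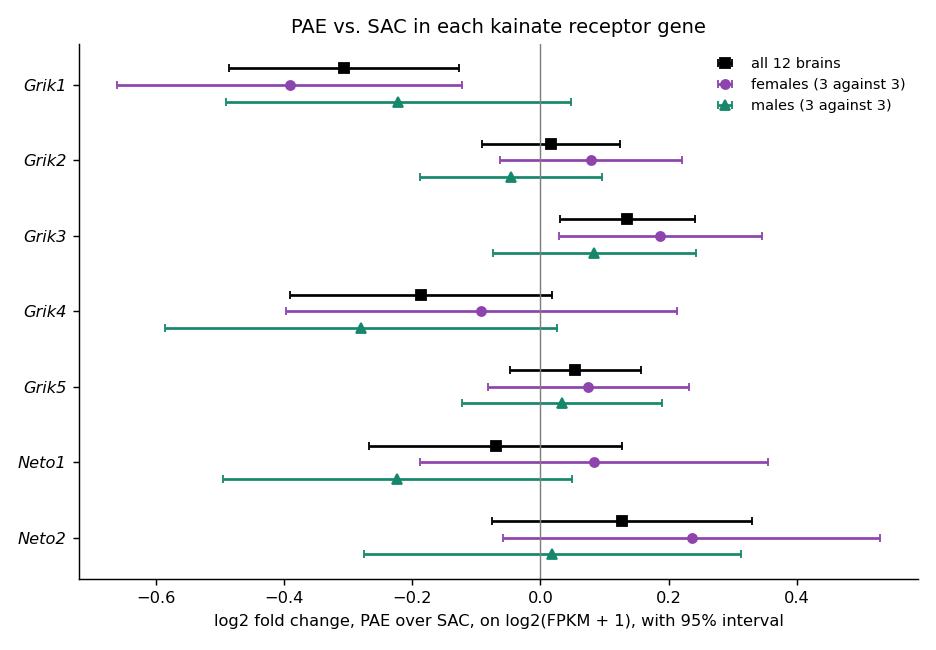
Log2 fold change of PAE over SAC, with its 95% interval from limma, for each kainate receptor gene in all 12 brains (black squares), in females (purple circles) and in males (green triangles). The interval of all 12 brains leaves out 0 for Grik1 (-0.49 to -0.13) and Grik3 (0.03 to 0.24) before adjustment, and only Grik1 passed after it.

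Within each sex no member was called by limma from 1 fit of the 4 groups. At an unadjusted p under 0.05 stood 2 of 7 members in females and 0 of 7 in males. All genes gave 0 of 12346 called in females (0%) and 4 in males (0.0324%), with 14.3% and 19.3% at an unadjusted p under 0.05. In females Grik1 averaged 5.06 ± 0.65 FPKM in PAE and 6.98 ± 1.19 FPKM in SAC (SD, n = 3 each), and the log2 fold change was -0.39 (adjusted p = 0.308 by limma). In males it averaged 5.56 ± 0.25 FPKM in PAE and 6.68 ± 0.87 FPKM in SAC (SD, n = 3 each), and the log2 fold change was -0.22 (adjusted p = 0.337 by limma). The estimate was thus negative in each sex, and the difference between them (females minus males) was -0.17 (95% interval -0.55 to 0.21, adjusted p = 1 by limma).

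Grik3 in females had a log2 fold change of 0.19 (adjusted p = 0.316 by limma) and in males of 0.084 (adjusted p = 0.552). Neto1 was the member whose estimates lay farthest apart, at 0.084 in females and -0.22 in males, with a difference (females minus males) of 0.31 (95% interval -0.078 to 0.69, unadjusted p = 0.107, adjusted p = 1 by limma). The interaction of sex and PAE called 0 of 7 members, with 0 at an unadjusted p under 0.05, where 1 of 12346 genes (0.0081%) was called and 3.95% stood at an unadjusted p under 0.05. Between female and male SAC brains 0 of 7 members were called by limma and 0 stood at an unadjusted p under 0.05, where 6 genes (0.0486%) were called and 2.49% stood at an unadjusted p under 0.05. The smallest p there was that of Grik2, which averaged 8.12 ± 0.31 FPKM in SAC females and 9.04 ± 0.42 FPKM in SAC males (SD, n = 3 each), and the log2 fold change was -0.14 for females over males (unadjusted p = 0.0549, adjusted p = 1 by limma).

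Grik1 and Grik3 ran in opposite directions from brain to brain. Over the 12 brains on the log2(FPKM + 1) scale their correlation was r = -0.87 (rho = -0.82). It was -0.83 within PAE and -0.78 within SAC (n = 6 each), and -0.71 without ES23-7 and SAC26-7, the brains farthest from the Grik1 median (n = 10). Both ends of the relation are visible in single brains, with ES23-7 at 4.33 FPKM of Grik1 and 28.3 FPKM of Grik3, and SAC26-7 at 8.1 FPKM of Grik1 and 21.3 FPKM of Grik3. The ratio of Grik1 to Grik3 was 0.213 ± 0.032 in PAE brains and 0.302 ± 0.054 in SAC brains (SD, n = 6 each). Grik1 made up 6.9% to 9.47% of the summed Grik1 to Grik5 FPKM in PAE brains and 9.25% to 13.1% in SAC brains. Grik3 also ran against the thalamus list (Tcf7l2, Lhx9, Gbx2, Rora, Ntng1, Lef1), at r = -0.87 (rho = -0.87) over 12 brains, -0.84 within PAE and -0.62 within SAC (n = 6 each). This was not particular to Grik3, since Neto2 had r = -0.80 (rho = -0.70) with that list. Grik3 ran with the cortical excitatory list at r = 0.79 (rho = 0.82), with 0.39 within PAE and 0.83 within SAC (n = 6 each). With the sensory ganglion list its r was -0.74 (rho = -0.63). The thalamus list summed to 39.4 to 67.8 FPKM in PAE brains and 59.2 to 75.6 FPKM in SAC brains, with 2 of 6 genes lower. The part of any of these lists in the Grik3 values was not tested.

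**Figure D4:**
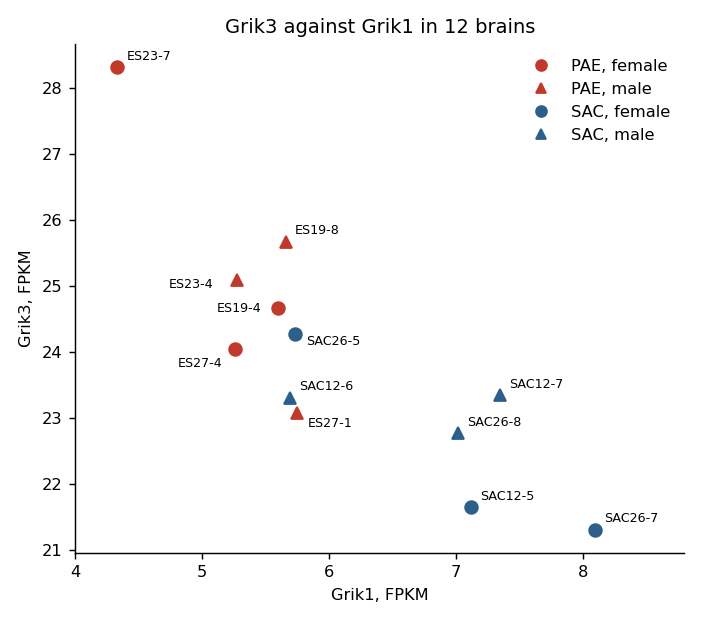
Grik3 FPKM (vertical axis, not starting at 0) against Grik1 FPKM (horizontal axis, not starting at 0) in each of 12 brains, PAE in red and SAC in blue, circles for females and triangles for males. The points fall from ES23-7 at the upper left to SAC26-7 at the lower right, r = -0.87 on the log2(FPKM + 1) scale.

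Grik1 and Grik4 varied together across brains at r = 0.73 (rho = 0.72), with 0.63 within PAE and 0.61 within SAC (n = 6 each), and 0.62 without ES23-7 and SAC26-7. Grik3 and Neto2 had r = 0.81 (rho = 0.59) over 12 brains, with 0.90 within PAE and 0.63 within SAC (n = 6 each), 0.59 without ES23-7 and 0.36 without ES23-7 and SAC26-7, so that much of it rests on those brains. Grik1 and Neto2 had r = -0.69 (rho = -0.51) over 12 brains, with -0.88 within PAE and -0.58 within SAC (n = 6 each), -0.49 without ES23-7 and -0.14 without both. Grik5 was nearly flat against Grik1 (r = 0.026, rho = -0.063) and Grik3 (r = -0.045, rho = -0.028). Of the 21 pairs, these were picked after their values were seen.

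Among the 12346 genes tested, those most like each member by Pearson correlation over the 12 brains were the following. For Grik1 they were Atp6v1c1 (r = 0.95), a subunit of the vacuolar proton pump, Fmnl1 (0.93), a formin, and Commd10 (0.93). For Grik3 they were Vps37b (0.96), an endosomal sorting subunit, Arpp21 (0.96), a cAMP-regulated phosphoprotein, and Hira (0.95), a histone chaperone. For Neto2 they were Osbpl8 (0.96), an oxysterol-binding protein, Marf1 (0.94) and Kcnh3 (0.93), a potassium channel. These 3 members had no gene in common among their nearest 3. For Grik4 they included Zcchc18 (0.95) and the lysosomal transporter Atp13a2 (0.93), and for Neto1 they were Arhgef26 (0.94), Fnip2 (0.92) and the myosin Myo5b (0.89). Grik2 had the nearest genes Prkra (0.91), Ppp1r13l (0.89) and Ccdc61 (0.86), and Grik5 had Ormdl3 (0.89), Adgrb1 (0.89) and Gm45716 (0.87). Highest values out of many genes over 12 brains are a description only.

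Of the 16 member transcripts, 13 had a mean of at least 1 FPKM and were tested. None was called by limma, and 2 of 13 stood at an unadjusted p under 0.05, Grik3-201 (log2 fold change 0.14, unadjusted p = 0.0238, adjusted p = 0.247) and Grik4-202 (-0.25, unadjusted p = 0.036, adjusted p = 0.29). Of all transcripts tested, 0 of 20937 (0%) were called and 3152 (15.1%) stood at an unadjusted p under 0.05. Grik3, Grik4, Grik5 and Neto1 had a single transcript each. For Grik5 the listed transcript held 0.192 to 0.381 of the gene value in the same brain, while the 4 Grik1 transcripts summed to 1.39 to 1.86 times the gene value. Transcript and gene values are therefore not on a common scale for these genes.

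The 4 Grik1 transcripts, which differ by the cassette exons printed above, were divided unevenly between brains. Grik1-209, with both exons, had 5.19 to 6.72 FPKM in 5 PAE brains and 0.68 FPKM in ES23-7, against 6.39 to 9.02 FPKM in 4 SAC brains, 1.6 FPKM in SAC12-7 and 1.05 FPKM in SAC26-8. In each of the 3 low brains another form was the largest, Grik1-202 in ES23-7 (3.67 FPKM) and SAC26-8 (7.26 FPKM) and Grik1-211 in SAC12-7 (7.4 FPKM). The low brains were of both groups and both sexes. Values of single transcripts are estimates that divide the reads shared by overlapping forms. How far that division made these differences between brains was not tested. The transcript without either exon, Grik1-201, had 0.807 to 1.33 FPKM in PAE brains and 0.531 to 2.74 FPKM in SAC brains, with a log2 fold change of -0.34 (adjusted p = 0.445 by limma).

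Transcripts with the 45-base exon made up 24.9% to 80.2% of the Grik1 transcript FPKM in PAE brains and 9.65% to 77% in SAC brains, and those with the 87-base exon 70.6% to 90.1% in PAE brains and 32.2% to 88.9% in SAC brains. The 87-base exon, in the tail, was thus in the larger part of Grik1 transcript FPKM in every brain but SAC12-7. The share of Grik1-209 was 53.6% in PAE and 48.3% in SAC on average, a difference of 5.29 percentage points (SE 13.7, adjusted p = 0.966 by limma). Of the members' 9 transcript shares tested, 0 were called and 0 stood at an unadjusted p under 0.05, where 3 of 17476 shares (0.0172%) were called and 5.48% stood at an unadjusted p under 0.05. With that SE, only a shift well beyond 13.7 percentage points in the share of Grik1-209 could have been detected. The SE was smaller for the scarcer Grik1-201, whose share differed by -3.14 percentage points (SE 2.94, adjusted p = 0.888 by limma).

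**Figure D5:**
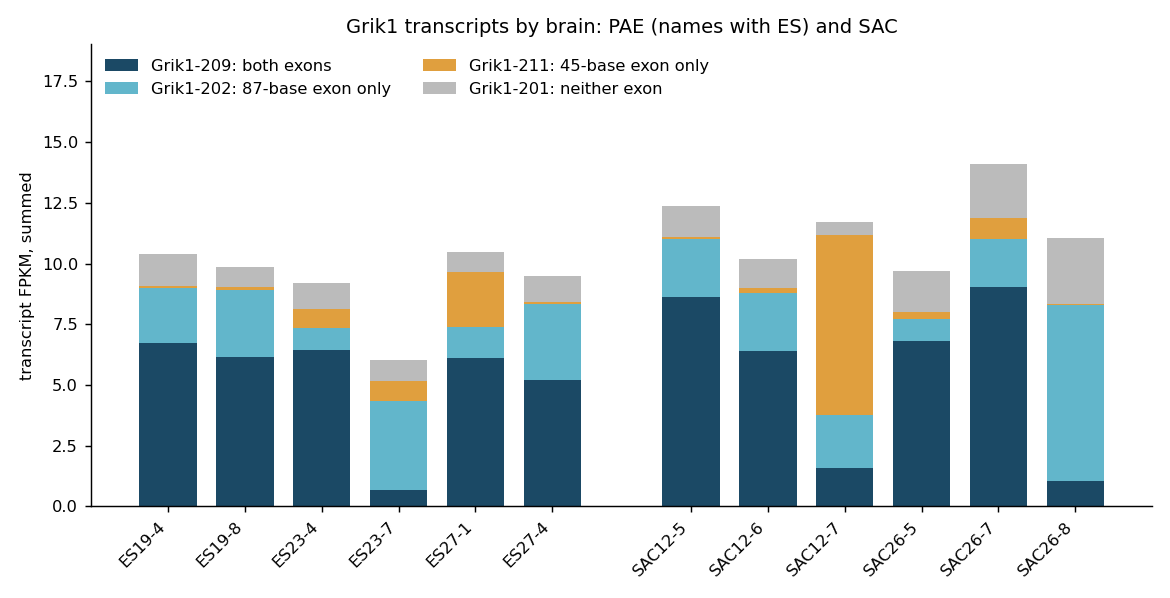
Summed FPKM of the 4 Grik1 transcripts in each brain, 6 PAE brains on the left and 6 SAC brains on the right, with a colour for each combination of the cassette exons. Grik1-209 (dark) is the largest part in 9 brains and falls to 0.68, 1.6 and 1.05 FPKM in ES23-7, SAC12-7 and SAC26-8.

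For Grik2 the long-tail form Grik2-207 dominated, at 9.79 ± 0.5 FPKM in PAE brains and 9.5 ± 0.84 FPKM in SAC brains (SD, n = 6 each). Grik2-204, which ends in the short-form sequence printed above, had 0.988 ± 0.091 FPKM in PAE brains and 1.44 ± 0.92 FPKM in SAC brains (SD, n = 6 each). The SAC spread came mostly from SAC12-6 at 3.29 FPKM. In that brain Grik2-207 took 53.8% of the Grik2 transcript FPKM, against 76.2% to 86.9% in the other SAC brains, and in PAE brains it took 78.9% to 87.4%. The share of Grik2-207 did not pass (adjusted p = 0.891 by limma), nor did that of Grik2-204 (adjusted p = 0.879). For Neto2, the main form Neto2-203 held 60.2% to 77.5% in PAE brains and 67.7% to 80.3% in SAC brains, and Neto2-201 held 12.2% to 26.3% in PAE brains and 10% to 20.6% in SAC brains. Neto2-201 has the longest coding part of the listed forms, 1659 bases, against 1554 in Neto2-203 and 1575 in Neto2-205. The highest Neto2-201 value, 10.1 FPKM, was in ES23-7, the brain with the highest Neto2 gene value.

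Of the genes listed as acting on kainate receptors, none was called. Of the RNA editing enzymes, 0 of 3 were called by limma and 0 stood at an unadjusted p under 0.05. Adarb1, the main Q/R site enzyme, averaged 4.86 FPKM in PAE and 5.58 FPKM in SAC (log2 fold change -0.16, adjusted p = 0.213 by limma), Adar had a log2 fold change of -0.043 (adjusted p = 0.59) and Adarb2 of -0.0056 (adjusted p = 0.962). Of 18 anchoring and trafficking partners, 16 were in the table and tested, 0 were called by limma, and 4 stood at an unadjusted p under 0.05, 1 higher and 3 lower, where 9.56% of all genes were called and 28.5% stood at an unadjusted p under 0.05. They were the scaffold Cask (-0.14, adjusted p = 0.0585), the SNARE protein Snap25 (-0.28, adjusted p = 0.0753), N-cadherin Cdh2 (0.12, adjusted p = 0.0988) and the kinesin Kif17 (-0.21, adjusted p = 0.127). The median log2 fold change of the 16 was -0.016, beside 0.0052 over all genes tested. C1ql2 and C1ql3, secreted C1q-like proteins that gather kainate receptors at mossy fibre synapses, had log2 fold changes of -0.38 (adjusted p = 0.363 by limma) and -0.26 (adjusted p = 0.101), with 0 of 2 called and 1 at an unadjusted p under 0.05.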

How the data were processed

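Poly-A selected RNA of 12 brains, 6 PAE and 6 SAC with 3 of each sex per group, had been sequenced as stranded paired-end libraries. The authors used FastQC for read quality, cutadapt for trimming, HISAT2 for alignment and StringTie with Ballgown for expression, and deposited the values as FPKM per gene and per transcript. No version of these programs is given in the sources used here. Whether counting used strand is not stated, and the paper's build name, GRCm28, was read as GRCm38 since loci match it. FPKM keep no read counts, so the depth per sample and its precision are unknown. Low values of FPKM are the least certain.

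Samples were grouped by their labels. Whether the name prefixes (3 in PAE, 2 in SAC) mark litters is not given. Each brain counted as an independent sample, so that p-values reflect only how these brains vary, which may be less than litters would. A mean of 1 FPKM or more over the 12 brains was required, and genes were tested on log2(FPKM + 1), on which fold changes of low genes are understated, with limma 3.58.1 in R 4.3.3 (empirical Bayes with trend, two-sided, Benjamini-Hochberg adjustment over all genes, called at an adjusted p under 0.05). Contrasts by sex came from 1 fit of 4 groups. Transcripts were tested likewise, and shares of transcripts as percents with means of 5 to 95. The fits were tried on simulated data with noise independent between genes, which leaves out any regional differences shared by many genes. Alternatives were pseudocounts of 0.1 and 0.01, other filters, median-of-ratios and quantile scaling, covariates for sex and Hox level, no moderation, quality weights, the name prefix as a block (statmod 1.5.0) or mean, sums of transcripts and leaving out brains. The genes named are the members, up to 4 genes of each pathway list with the smallest p, the 3 genes most correlated with each member, and markers that moved with a result. A few genes of the marker lists and of the most correlated genes are not reported here, and the list sums leave them out. Members, lists and alternatives were chosen with earlier results of these data known. Sequences came from GENCODE M21 transcripts, read with Python 3.11.15.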

Additional observations from a re-analysis of the deposited data

Results flagged for a closer look

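In the groups of 6 brains, 17 values stood apart from the rest of their group by a gap past Dixon's critical value at the 95% level, out of 80 groups of values examined. Chance marks about 1 in 20 groups, and many of these values are parts of each other and share a brain.

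ES23-7 gave 8 of the 9 marked PAE values. Its Grik1 gene value was 4.33 FPKM, against 5.26 to 5.74 FPKM in the other PAE brains. Its Grik1-209 transcript had 0.681 FPKM (others 5.19 to 6.72), and its 4 Grik1 transcripts summed to 6.02 FPKM (others 9.18 to 10.5). Its Neto2-201 transcript had 10.1 FPKM (others 3.28 to 5.49) and its Neto2-205 transcript 5.2 FPKM (others 2.95 to 3.77). Grik1 made up 6.9% of its summed subunits (others 8.54% to 9.47%) and Grik5 30.8% (others 34.4% to 36.2%). The ratio of Neto1 and Neto2 to the subunits was 0.736 there (others 0.512 to 0.566). The other marked PAE value was Grik1-211 in ES27-1, at 2.27 FPKM (others 0.073 to 0.82).

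SAC12-6 was marked for Grik2 transcripts, with Grik2-201 at 1.71 FPKM (others 0.108 to 0.528), Grik2-204 at 3.29 FPKM (others 0.831 to 1.36), Grik2-210 at 0.783 FPKM (others 0 to 0.064) and Grik2-207 at 53.8% of the Grik2 transcripts (others 76.2% to 86.9%). SAC12-7 was marked for Grik1-211 at 7.4 FPKM (others 0.022 to 0.878) and for transcripts with the 87-base exon at 32.2% (others 75% to 88.9%). SAC26-8 was marked for Grik1-202 at 7.26 FPKM (others 0.89 to 2.42) and for transcripts with the 45-base exon at 9.65% (others 64.4% to 77%).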

How the results depend on the processing

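The Grik1 call in PAE vs. SAC held without ES19-4 and SAC12-6 together (adjusted p = 0.0182 by limma), whose Hox level went against the rest of their group. In that fit Hox level and treatment could not be told apart. The Grik1 call also held (1 member called) with the other pseudocounts, filters, scalings and quality weights. It was lost (0 members called), with Grik1 at -0.31, with sex as a covariate, without moderation (adjusted p = 0.0663), with the name prefix as a random block and with prefix means (adjusted p = 0.231), at -0.22 with the Hox covariate and at -0.30 with sums of transcripts (adjusted p = 0.151). The cause was not tested. Without single brains, 0 to 1 members were called, with Grik1 at -0.35 to -0.26. Grik2 turned to -0.0015 with the Hox covariate and to -0.058 with sums of transcripts, and without single brains ranged from -0.0089 to 0.041. Also crossing 0 without single brains were, for PAE vs. SAC in males, Grik5 (-0.0035 to 0.061) and Neto2 (-0.044 to 0.072), for females Neto1 (-0.027 to 0.16) and Grik4 (-0.20 to 0.0018), for the interaction Grik5 (-0.011 to 0.11), and for females vs. males within SAC Grik1 (-0.049 to 0.17). None of these was called in any of those fits. The difference in Grik1's percent of the subunits, PAE minus SAC, was -2.67 and moved to -3.99 with sums of transcripts.

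Of all genes, 1180 were called in PAE vs. SAC, against 681 without moderation, 550 with sums of transcripts, 0 with prefix means or the Hox covariate, 2120 without ES19-4 and SAC12-6, and 124 to 2385 without single brains. In males 4 became 2 under another pseudocount, filter or scaling and 9 in a fit of only those libraries. In females 0 became 1 with quantile normalization. Within SAC 6 became 10 in a fit of only those libraries. Without single brains the counts were 0 to 8 in males, 0 to 471 in females, 1 to 3 for the interaction, 0 to 561 for transcripts (0 with all brains) and 1 to 8 for shares (3 with all brains). No paired analysis was possible because no label pairs a PAE brain with a SAC brain: replicate numbers only follow accession order, and the labels name no dam. Depth is unknown, so what it limits could not be given.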

Other observations

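Among the other ionotropic glutamate receptor genes and their auxiliary subunits, every gene called was lower in PAE. Over all genes tested, 9.56% were called, 5.22% lower and 4.34% higher, and with lists this short the counts below are a description. Whether these families differ from the kainate receptor genes was not tested. Of the AMPA receptor subunits 1 of 4 was called, Gria4 (17.4 FPKM in PAE and 21.7 FPKM in SAC on average, log2 fold change -0.31, adjusted p = 0.0274 by limma), while Gria2 had 0.21 (adjusted p = 0.123), Gria1 0.066 (adjusted p = 0.348) and Gria3 -0.054 (adjusted p = 0.818). Of 4 NMDA receptor subunits tested 1 was called, Grin3a (5.16 FPKM in PAE and 7.52 FPKM in SAC on average, log2 fold change -0.48, adjusted p = 0.0203), while Grin2d had -0.49 (adjusted p = 0.0652), Grin1 -0.32 (adjusted p = 0.132) and Grin2b 0.014 (adjusted p = 0.919). The delta receptor subunit Grid1 was lower (-0.29, adjusted p = 0.0268 by limma). Of 12 AMPA receptor auxiliary subunits 2 were called, both lower, Gsg1l (-0.48, adjusted p = 0.022) and Shisa9 (-0.35, adjusted p = 0.0299), while Cacng7 had 0.17 (adjusted p = 0.0501) and Cacng2 -0.3 (adjusted p = 0.0793).

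Of the vesicular glutamate transporters, which load glutamate into synaptic vesicles, 2 of 3 were lower by limma. Slc17a6, typical of subcortical neurons, averaged 23.3 FPKM in PAE and 33.2 FPKM in SAC (log2 fold change -0.52, adjusted p = 0.0377), and Slc17a8 averaged 1.09 FPKM in PAE and 2.32 FPKM in SAC (-0.69, adjusted p = 0.022). Slc17a7, typical of cortical neurons, had 0.21 (adjusted p = 0.36). Of the marker genes tested in PAE vs. SAC, limma called 5 of 5 cortical, 2 of 6 thalamic and 0 of 10 Hox genes, beside 9.56% of all genes. At an unadjusted p under 0.05, 8 of the 10 Hox genes were lower, where 28.5% of all genes stood in either direction. The part of these markers in the transporter values was not tested.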
